A study of Mus musculus with 3 samples.

Results

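The nuclei of cluster 0 of the deposited clustering, taken here as neurons and checked below on the GABAergic markers Gad2 and Slc32a1 and the activity-regulated factor Npas4, were compared between E13.5 and E15.5 (days of embryonic development). Members were chosen by the deposited cluster number and library, which gave 259 of the 1879 nuclei in the series, 87 at E13.5 and 172 at E15.5. Single-nucleus ATAC-seq, in which the Tn5 transposase cuts open chromatin and each fragment carries a barcode of its nucleus, was run on sections of wild-type (WT) C57BL/6JRj mouse embryos of 3 stages, with 1 library for each, E12.5 being the earliest, then E13.5, and E15.5 the latest. The sections came from littermates of embryos used for spatial profiling and were cut at matching landmarks. The nuclei were sorted on a DNA dye without a cell type gate, so cluster 0 can hold neurons of any part of the nervous system that a section crossed. With 1 library per stage, embryo, sections, library and stage cannot be told apart, no test was possible, and every interval below is a 95% interval for counting error only.

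GABAergic neurons make their transmitter with the glutamate decarboxylases encoded by Gad1 and Gad2 and load it into vesicles with the transporter encoded by Slc32a1. In the embryo they arise along the whole neuraxis. Those of the forebrain come largely from the ganglionic eminences, where the Dlx homeobox genes act. Those of the midbrain, hindbrain and spinal cord use other factors, among them Tal1, Gata2, En1, En2, Pax2, Lhx1 and Lhx5, and Hox genes mark positions from the hindbrain backwards. Open chromatin at promoters and at distal elements differs between such lineages, and distal elements tend to be the more cell type specific.

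Cluster 0 held 6258577 autosomal fragments at E13.5, with a median of 63276 per nucleus, and 11416452 at E15.5, with a median of 61476. Fragments over promoters made up 10.2% of the total at E13.5 and 11.9% at E15.5, and fragments shorter than the DNA of a nucleosome made up 65.1% and 61.2%. In cluster 1, used to set aside shifts of the whole library, there were 125 nuclei at E13.5 and 120 at E15.5, and the promoter share also differed in the same direction (13.1% and 15.2%). A ratio set against cluster 1 also takes in changes of cluster 1 itself. A fragment over a Y-linked gene was present in 68 of the 87 cluster 0 nuclei at E13.5 and in 1 of the 172 at E15.5, so the embryos differed in sex and autosomes alone were counted. No barcode sequence was shared between cluster 0 of the 2 stages. Doublets were not removed. Because the clusters were drawn from the same fragments, a change in the mix of nuclei called cluster 0 and a change within each nucleus cannot be told apart, and this applies to every shift below.

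The label was checked on its markers. Levels of genes are given in CPM, the fragments over the gene body and 2 kb upstream per 1000000 fragments over all genes counted. Levels of distal bins and promoters are CPM too, scaled to the fragments over all features of their own kind. Gad2 stood at 146.5 CPM in cluster 0 at E13.5 and at 34.8 CPM in all other nuclei of that library, a ratio of 4.21 (interval 3.79 to 4.66). At E15.5 it stood at 100.5 CPM against 34.8 CPM, a ratio of 2.89 (2.58 to 3.24). Slc32a1 was 3.81-fold (3.24 to 4.46) and 3.47-fold (2.91 to 4.15) above the other nuclei at the 2 stages, and Npas4 3.43-fold (2.85 to 4.12) and 3.37-fold (2.81 to 4.06). All 3 markers thus stood above the pool of remaining nuclei in both libraries. At E13.5 the highest other cluster had 49.2 CPM for Gad2 (cluster 3), 28.2 for Slc32a1 (cluster 7) and 25.3 for Npas4 (cluster 6). Cluster 0 had 146.5, 60.8 and 44.4 CPM. At E15.5 the highest other cluster was cluster 6 for each, with 62.0, 22.6 and 28.8 CPM, against 100.5, 46.3 and 42.1 CPM in cluster 0. Since clusters were drawn on these fragments, this describes the label and is no test of it.

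Distal elements were counted in bins of 1 kb that lay at least 2 kb from every annotated start site, and the 20000 bins with the highest mean level over both libraries in cluster 0 were compared, scaled to the fragments in all distal bins. Of these, 1285 (6.42%) were at least 2-fold higher and 1630 (8.15%) at least 2-fold lower at E15.5, and the median ratio over all 20000 was 0.998. With nuclei weighted equally, 2587 were higher and 2354 lower, so which direction held more bins depended on the weighting. A bin of the median size (45 fragments) at the 2-fold limit had an interval of 0.941 to 4.40, so single bins near the limit cannot be told from equal levels at this depth. The bins just inside and just outside the upper limit had ratios of 2.0005 and 1.9971. Cluster 1 had at least 20 fragments in 795 of the higher bins, of which 68 were 2-fold higher and 65 2-fold lower there, with a median ratio of 1.07. It had them in 594 of the lower bins, of which 53 were 2-fold higher and 81 2-fold lower, with a median ratio of 0.915. Over all bins with 20 fragments in cluster 1, 7.27% were 2-fold higher and 9.12% 2-fold lower, with a median of 1.05. In cluster 6, 118 of 485 such lower bins were 2-fold lower and 22 higher, with a median ratio of 0.773 (0.945 over all bins there), and 88 of 687 higher bins were 2-fold lower and 56 higher (median 0.980). Over all bins with 20 fragments in cluster 6, 14.4% were 2-fold lower and 6.69% 2-fold higher.

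**Figure D1:**
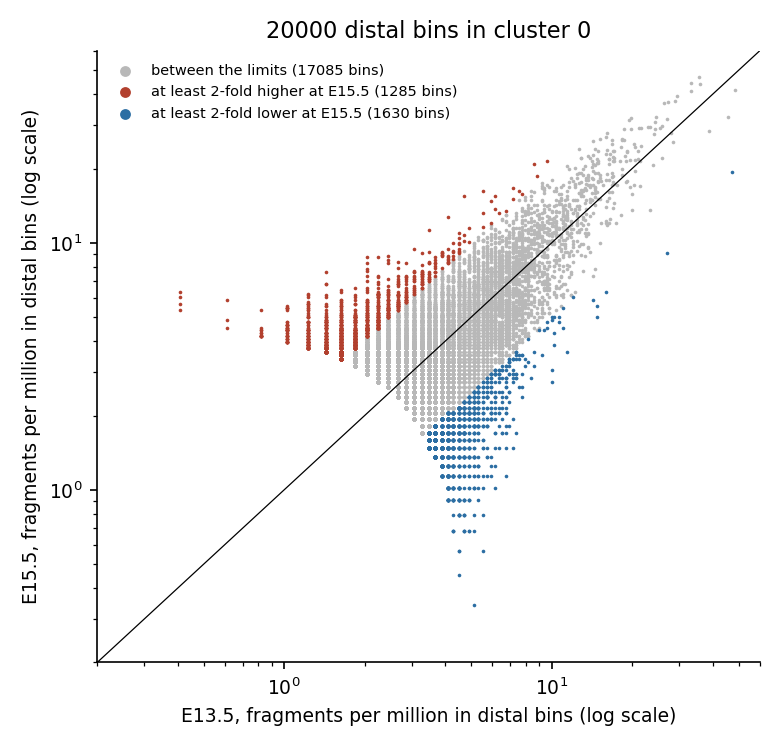
CPM in each of 20000 distal bins of cluster 0 at E13.5 (x axis) and E15.5 (y axis), both on log scales, with 1 point per bin and the line of equality. The 1285 red bins were at least 2-fold higher and the 1630 blue bins at least 2-fold lower at E15.5, and the empty lower left corner comes from the choice of bins by their mean level.

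The 5 higher and 2 of the 5 lower bins that ranked first by the bound of their interval nearest 1 are shown with the 300 bases around the point of most insertions (GRCm38, the build of the deposited fragments). Capitals mark the RFX hexamer GTTGCC or its reverse complement GGCAAC, and the inverted repeat GTTNC followed after 3 or 4 bases by GNAAC, which is the form of the X-box bound by RFX factors. The sequences are shown because the inverted repeat stood in the windows of Pknox2, Phyhipl and Nedd9. The windows of Plxna1 and B3gat1 held neither. Over the windows of all 10 bins named below, the hexamer stood in 2 of the higher (Nbea, Phyhipl) and 2 of the lower (Ksr1, Kif17), and the repeat in 3 higher and 0 lower.
Bin in Pknox2, chr9:36950250-36950549, plus strand: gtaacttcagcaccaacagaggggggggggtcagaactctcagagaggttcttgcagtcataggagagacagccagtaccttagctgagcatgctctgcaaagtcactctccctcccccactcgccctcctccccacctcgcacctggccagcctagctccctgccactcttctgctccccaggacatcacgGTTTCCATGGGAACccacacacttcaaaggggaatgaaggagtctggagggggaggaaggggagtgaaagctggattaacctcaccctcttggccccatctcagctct
Bin in Plxna1, chr6:89351724-89352023, plus strand: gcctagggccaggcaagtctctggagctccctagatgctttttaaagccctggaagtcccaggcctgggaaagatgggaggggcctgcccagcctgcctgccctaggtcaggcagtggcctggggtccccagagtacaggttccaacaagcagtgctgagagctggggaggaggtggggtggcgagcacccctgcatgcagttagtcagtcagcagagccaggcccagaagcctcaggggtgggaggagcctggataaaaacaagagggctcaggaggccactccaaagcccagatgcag
Bin in Nbea, chr3:55741511-55741810, plus strand: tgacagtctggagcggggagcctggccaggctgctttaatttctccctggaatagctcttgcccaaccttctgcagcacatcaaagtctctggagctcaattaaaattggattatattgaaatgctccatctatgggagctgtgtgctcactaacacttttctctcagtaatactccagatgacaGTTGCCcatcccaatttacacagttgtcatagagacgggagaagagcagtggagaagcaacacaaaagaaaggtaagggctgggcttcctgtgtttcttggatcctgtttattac
Bin upstream of Phyhipl, chr10:70789063-70789362, plus strand: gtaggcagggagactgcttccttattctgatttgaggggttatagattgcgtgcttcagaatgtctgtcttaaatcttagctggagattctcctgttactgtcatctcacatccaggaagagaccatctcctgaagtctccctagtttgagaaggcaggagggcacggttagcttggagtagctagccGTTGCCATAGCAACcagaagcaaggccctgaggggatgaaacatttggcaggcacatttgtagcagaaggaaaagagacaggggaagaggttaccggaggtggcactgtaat
Bin in Nedd9, chr13:41416122-41416421, plus strand: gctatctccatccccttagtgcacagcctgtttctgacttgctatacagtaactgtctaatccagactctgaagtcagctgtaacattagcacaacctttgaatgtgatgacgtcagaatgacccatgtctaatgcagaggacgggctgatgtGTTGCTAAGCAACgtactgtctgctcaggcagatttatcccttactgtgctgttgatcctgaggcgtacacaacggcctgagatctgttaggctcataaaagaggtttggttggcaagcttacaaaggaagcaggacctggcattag
Bin in Ksr1, chr11:79105046-79105345, plus strand: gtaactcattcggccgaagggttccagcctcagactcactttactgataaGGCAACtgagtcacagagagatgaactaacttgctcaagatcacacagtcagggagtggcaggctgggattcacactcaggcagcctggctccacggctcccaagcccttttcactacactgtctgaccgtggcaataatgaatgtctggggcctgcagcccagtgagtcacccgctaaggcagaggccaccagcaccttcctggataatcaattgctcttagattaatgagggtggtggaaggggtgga
Bin upstream of B3gat1, chr9:26622524-26622823, plus strand: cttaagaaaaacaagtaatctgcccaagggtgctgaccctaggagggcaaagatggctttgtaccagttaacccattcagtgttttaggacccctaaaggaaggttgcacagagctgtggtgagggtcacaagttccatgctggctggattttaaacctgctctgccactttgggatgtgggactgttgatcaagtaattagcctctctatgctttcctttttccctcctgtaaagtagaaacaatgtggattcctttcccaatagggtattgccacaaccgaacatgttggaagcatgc

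The bin with the largest lower bound lay in an intron of Pknox2 (chr9:36950001-36951000), 129 kb downstream of the start of Fez1, the nearest coding gene, which acts in axon outgrowth. It held 2 fragments at E13.5 (0.409 CPM) and 56 at E15.5 (6.35 CPM), a ratio of 15.53 (4.104 to 131), or 5.55 with nuclei weighted equally. The 56 fragments came from 32 of the 172 nuclei (18.6%, exact interval 13.1 to 25.2%), with at most 6 in 1 nucleus, against 2 of the 87 nuclei (2.30%, 0.280 to 8.06%) at E13.5. After each nucleus was thinned to 20000 fragments, 17 of 149 nuclei (11.4%) and 0 of 80 had one, and the count of 0 allows a share of up to 3 in 80. In cluster 5, taken as a further background, 2 of 166 nuclei at E13.5 had one (1.205%). Cluster 1 held 19 and 4 fragments, the opposite order.

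Plxna1, a receptor for semaphorins in axon guidance, held the next bin in an intron 11.1 kb downstream of its start (chr6:89351001-89352000). It had 2 fragments at E13.5 and 53 at E15.5 (0.409 and 6.01 CPM, ratio 14.7, 3.87 to 125), the latter from 26 nuclei. Here cluster 1 was open at both stages, with 54 and 32 fragments (8.90 and 7.24 CPM). The bin in an intron of Nbea (chr3:55741001-55742000), 41.0 kb upstream of the transcription regulator Mab21l1, went from 2 to 50 fragments (ratio 13.9, 3.64 to 118), while cluster 1 held 4 and 3. An intergenic bin 134 kb upstream of Phyhipl (chr10:70789001-70790000) went from 2 to 47 fragments (ratio 13.04, 3.41 to 111), from 34 nuclei at E15.5, and was almost closed in cluster 1 with 0 and 1. The last of the 5 lay in an intron of Nedd9, a scaffold of focal adhesions (chr13:41416001-41417000), with 3 and 52 fragments (ratio 9.62, 3.11 to 48.1), and with 14 and 3 in cluster 1. Fragments in these 5 bins were held by between 15.1% and 19.8% of the cluster 0 nuclei at E15.5, and by at most 3.45% at E13.5. The bins were ranked on these same fragments, so this contrast follows from their choice, and nuclei of 1 library are not replicates of a stage. In the 11 cluster 0 nuclei of E12.5, the Pknox2 bin stood at 9.11 CPM (4.17 to 17.3) and the Plxna1 bin at 6.08 CPM (2.23 to 13.2). The Nbea, Phyhipl and Nedd9 bins held 4, 0 and 2 fragments there.

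Among the lower bins, an intron of Ksr1, a scaffold of the MAP kinase pathway (chr11:79105001-79106000), had 25 fragments at E13.5 and 3 at E15.5 (5.11 and 0.340 CPM, ratio 0.0666, 0.0129 to 0.218). Those 25 came from 12 of the 87 nuclei. An intergenic bin 111 kb upstream of B3gat1, which makes the HNK-1 carbohydrate of neural cells (chr9:26622001-26623000), had 27 and 5 fragments (ratio 0.103, 0.0309 to 0.271), and 0 and 1 in cluster 1. A bin over an exon of the kinesin gene Kif17 (chr4:138274001-138275000) had 22 and 4 (ratio 0.101, 0.0253 to 0.297). The bin 8.71 kb upstream of the nucleoside transporter Slc29a3 (chr10:60761001-60762000) had 25 and 6 (ratio 0.133, 0.0447 to 0.332), and a bin over an exon of Rhbdf2 near Aanat (chr11:116606001-116607000) had 27 and 7 (ratio 0.144, 0.0529 to 0.339). The Rhbdf2 bin was also lower in cluster 1, with 14 and 2 fragments (ratio 0.196), and in cluster 6, with 7 and 0. In cluster 1 the Ksr1 bin had 5 and 2, the Kif17 bin 10 and 7 and the Slc29a3 bin 10 and 5. Between 11.5% and 17.2% of the E13.5 nuclei of cluster 0 held a fragment in these 5 lower bins, and between 1.74% and 2.91% of its E15.5 nuclei, a contrast that also follows from the choice of the bins. Some of these bins were also open in cluster 5 at E13.5, in 15 of 166 nuclei (9.04%) for the Ksr1 bin and in 19 of 166 (11.4%) for the Rhbdf2 bin. At 20000 fragments per nucleus, the Ksr1 bin was open in 8.75% of 80 cluster 0 nuclei and 2.76% of 145 cluster 5 nuclei at E13.5, and the Rhbdf2 bin in 7.50% and 2.76%.

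**Figure D2:**
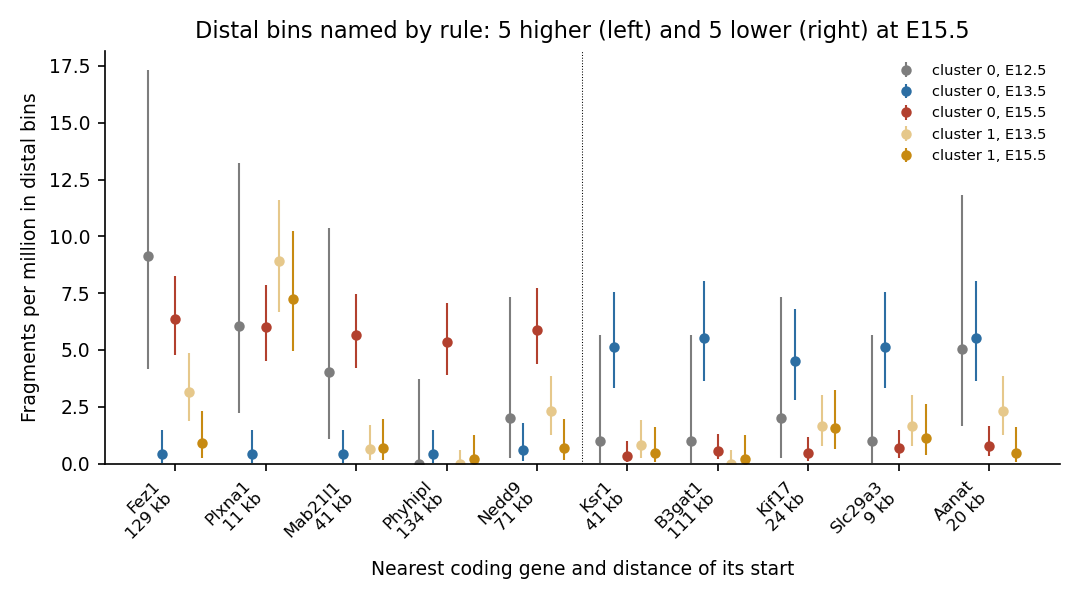
CPM in distal bins (y axis) for the 5 higher and 5 lower bins named above, labelled by the nearest coding gene and its distance, with exact Poisson 95% intervals. In cluster 0 the E13.5 (blue) and E15.5 (red) intervals do not overlap in any of the 10 bins, which follows from their choice by this interval, whereas the E12.5 points (grey, 11 nuclei) carry wide intervals, and cluster 1 is shown in yellow (E13.5 pale, E15.5 dark).

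Letters of 18 short motifs, searched on both strands of the 300 bp windows, were present in nearly like shares of the higher and lower bins for most motifs. The widest gap was that of the RFX hexamer GTTGCC, present in 18.6% of the higher windows (exact interval 16.5 to 20.8%), in 11.2% of the lower ones (9.68 to 12.8%) and in 14.3% of all 20000. In the other direction, TGACAG, a MEIS site, was in 23.9% of the higher and 29.5% of the lower windows, with 25.9% of all, and the nuclear receptor hexamer AGGTCA was in 13.46% and 17.6%, with 15.3% of all. The homeodomain letters TAATTA were in 7.39% and 9.88% (9.05% of all), and the E-box CAGATG of proneural factors in 23.1% and 26.1% (25.1% of all). Median GC content of the windows was 51.3% in the higher, 52.7% in the lower and 52.3% in all bins. A match is a run of letters and not a site that was shown to be bound.

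This inverted repeat was searched after the windows above had been read. RFX factors bind such X-boxes and are known for genes of cilia and for neuronal genes. It was in 92 of the 1285 higher windows (7.16%, 5.81 to 8.71%) and in 24 of the 1630 lower windows (1.47%, 0.946 to 2.18%), with 781 of all 20000 (3.91%, 3.64 to 4.18%). Over the 781 bins that held it, 11.8% were at least 2-fold higher and 3.07% at least 2-fold lower in cluster 0, beside 6.42% and 8.15% of all bins. Their median ratio was 1.204 in cluster 0 (0.998 over all bins). In the other clusters the median ratio was 0.915 over the 331 such bins with at least 20 fragments in cluster 1 (1.05 over all bins there) and 0.903 over 390 in cluster 6 (0.945 over all). The hexamer outside the repeat was in 13.7% of the higher and 10.2% of the lower windows, with 11.8% of all. Of the fragments in the 20000 bins, those in bins with the repeat made up 4.29% at E13.5 and 5.12% at E15.5 in cluster 0, 3.09% and 2.78% in cluster 1, and 3.79% and 3.90% in cluster 6. In cluster 6, 6.92% of the bins with the repeat were 2-fold higher and 10.8% 2-fold lower, beside 6.69% and 14.4% of all bins, so its median and these shares lay on different sides of all bins. In the 11 cluster 0 nuclei of E12.5 they made up 4.43%. The repeat was looked for because it stood in the leading bins, so these shares are a description.

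**Figure D3:**
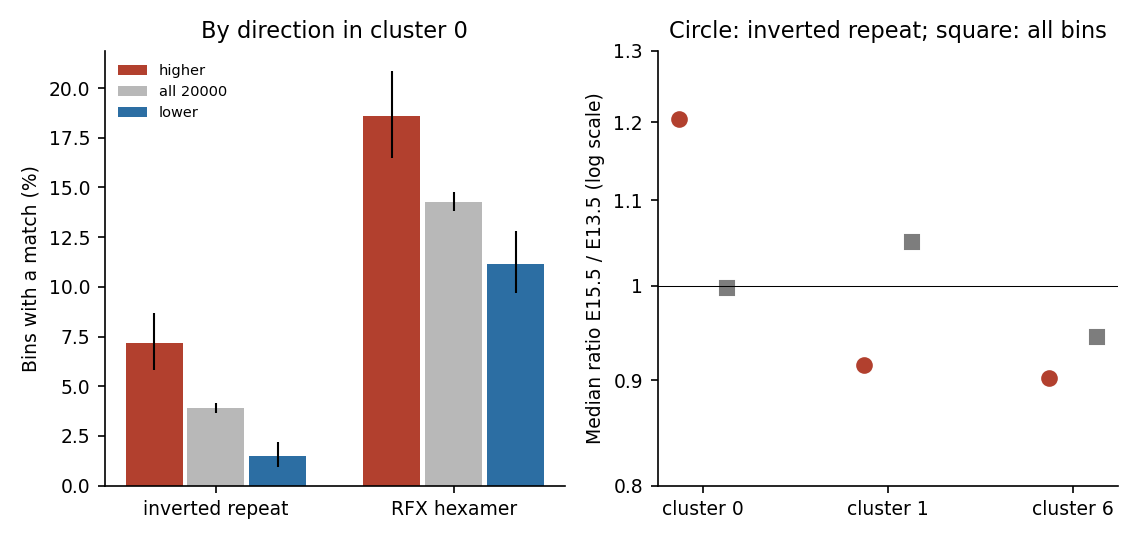
Left, percent of 300 bp windows (y axis) with the inverted repeat or with the RFX hexamer among higher, all and lower bins, with exact 95% intervals. Right, median ratio E15.5 / E13.5 (log scale) over bins with the repeat (circles) and over all bins (squares), at 1.204 against 0.998 in cluster 0, 0.915 against 1.05 in cluster 1 and 0.903 against 0.945 in cluster 6.

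For genes, a gene was taken as past the limit when its ratio in cluster 0 and its ratio relative to cluster 1 (the ratio in cluster 0 divided by that in cluster 1) were both at least 1.5 or both at most 1/1.5, among autosomal coding genes with at least 200 fragments in each cluster over both libraries. Of 12162 such genes, 151 (1.24%) were higher and 156 (1.28%) lower at E15.5, and the median ratio was 1.01 in both clusters. In cluster 0 by itself 235 of them were 1.5-fold higher and 248 lower, and in 8 and 26 of these cluster 1 was past the same limit in the same direction. Over all 12162 genes, cluster 1 was past it in 205 higher and 399 lower. Listed mesenchyme markers summed to 805 CPM at E13.5 and 966 at E15.5 in cluster 1, against 318 and 282 CPM in cluster 0. Cluster 1 is thus another cell class, and its own changes enter every relative ratio. Of the gene ratios in cluster 0, 90% lay between 0.734 and 1.37. Genes had a median of 570 fragments and bins one of 45, so their spreads cannot be compared. The genes just inside and outside the upper limit had 1.5003 and 1.4989.

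The gene with the highest rank was Ly6h (chr15:75551268-75567255), which encodes a membrane-anchored modulator of nicotinic receptors in brain. It had 130 fragments at E13.5 (36.3 CPM) and 423 at E15.5 (63.2 CPM) in cluster 0, a ratio of 1.74, against 178 and 61 fragments in cluster 1 (ratio 0.451), so the relative ratio was 3.86 (2.68 to 5.57). Set against cluster 6 in place of cluster 1 it was 1.41, under the limit, and against all nuclei outside cluster 0 it was 2.04. Its fragments came from 48 and 114 nuclei. Nrn1, encoding neuritin, a membrane-anchored protein of neurite growth (chr13:36725361-36735131), stood at 24.8 and 53.0 CPM in cluster 0 (ratio 2.13, relative 3.10, 2.25 to 4.28). The transcription factor gene Tfap2b (chr1:19208914-19238576), expressed in midbrain and dorsal neural lineages, stood at 24.8 and 47.0 CPM (ratio 1.89, relative 2.73, 1.88 to 3.97, but 1.35 against cluster 6). Plxna1 (chr6:89316314-89362620), which holds the second bin described above, stood at 95.5 and 164 CPM (ratio 1.72, relative 2.23, 1.87 to 2.66), in 72 of 87 and 145 of 172 nuclei. The other 6 of the 10 named genes were Cdh3, G6pc3, Fstl3, Ccdc105, Arhgef15 and Gusb, with ratios between 1.63 and 2.21 and relative ratios between 2.69 and 3.35. Against cluster 6, Ccdc105 was at 1.52, just past the limit. In all 10 the ratio in cluster 1 was below 1 (0.451 to 0.824), which follows in part from their rank by the ratio relative to cluster 1. Other higher genes had a ratio above 1 there, such as Cfap97d1 (1.36).

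The lowest rank was that of Tnfsf8, the CD30 ligand gene (chr4:63831308-63861347), with 113 fragments (31.5 CPM) at E13.5 and 96 (14.3 CPM) at E15.5 in cluster 0. Its ratio was 0.454 in cluster 0, 1.83 in cluster 1 and 0.248 relative to it (0.166 to 0.370). Col6a2, a collagen VI chain (chr10:76595762-76623630), stood at 40.8 and 19.3 CPM (ratio 0.473, relative 0.334, 0.250 to 0.445, and 0.648 against cluster 6), and Htra3, a secreted protease (chr5:35652023-35679782), at 43.3 and 19.9 CPM (ratio 0.459, relative 0.389). The Wnt receptor gene Fzd5 (chr1:64730558-64737751), active in early forebrain and eye, stood at 33.5 and 18.8 CPM (ratio 0.562, relative 0.377, 0.272 to 0.522). The remaining 6, Trim47, Copz2, Cdh17, Dpep1, Gm12216 and Aox1, had ratios between 0.468 and 0.593 and relative ratios between 0.331 and 0.409. Against cluster 6 the relative ratio was 0.963 for Cdh17 and 0.701 for Aox1, neither past the limit.

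**Figure D4:**
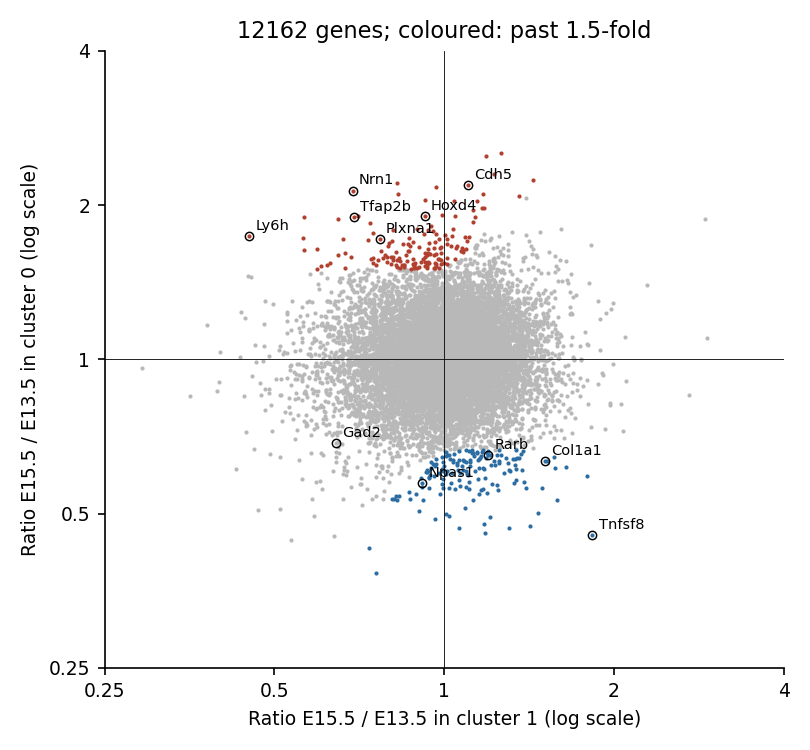
Ratio E15.5 / E13.5 in cluster 1 (x axis) and in cluster 0 (y axis) for 12162 genes, both on log scales, with 1 point per gene. The 151 red genes were higher and the 156 blue genes lower past the 1.5-fold limits; Ly6h lies at 1.74 in cluster 0 and 0.451 in cluster 1, and Tnfsf8 at 0.454 and 1.83.

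Factors of forebrain GABAergic lineages were read as a list. The list of ganglionic eminence factors had 15 members, of which 8 passed the minimum in both clusters, with a median ratio of 0.809 in cluster 0 (1.01 over all genes) and 0.864 relative to cluster 1 (1.01). The relative median was -0.21 on the log2 scale and 0.01 with nuclei weighted equally. Of the 8, 1 was lower past both limits and none higher, beside 1.28% lower and 1.24% higher of all genes. It was Npas1, a factor of interneurons and pallidal neurons, at 93.2 and 53.5 CPM (ratio 0.573, 0.493 to 0.668, relative 0.627). By the ratio in cluster 0 alone, with the minimum in cluster 0 alone, 12 members could be read, of which 4 were lower and none higher, beside 2.38% lower and 2.26% higher of all 13236 genes read this way. Dlx5 stood at 44.7 and 25.7 CPM (0.575, 0.461 to 0.718, in cluster 1 0.799) and Dlx2 at 35.7 and 22.99 CPM (0.644, 0.506 to 0.820, in cluster 1 0.903). Sp8, a zinc finger factor of the same territories, stood at 28.8 and 17.9 CPM (0.623, 0.475 to 0.819, in cluster 1 0.848). Relative to cluster 1 the ratios were 0.720 (0.505 to 1.03) for Dlx5, 0.712 (0.477 to 1.07) for Dlx2 and 0.735 (0.457 to 1.19) for Sp8, all with intervals that include 1. By contrast Lhx6, a factor of medial eminence interneurons, had 49.7 and 50.5 CPM, a ratio of 1.02 (0.845 to 1.23).

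Of 9 listed forebrain factors, 6 passed with a median ratio of 0.853 in cluster 0 and 1.13 in cluster 1. Their relative median was -0.36 on the log2 scale against cluster 1 and 0.02 against cluster 6. Rarb, a retinoic acid receptor of the striatum, was lower past both limits (1.28% of all genes were), at 340 and 222 CPM (ratio 0.651, 0.603 to 0.703, relative 0.544), with fragments in 83 of 87 and 154 of 172 nuclei. Lhx2, which is also active outside the telencephalon, had 70.9 and 76.6 CPM (1.08, 0.928 to 1.26).

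Midbrain, hindbrain and Hox genes had medians above that of all genes. So had the listed ribosomal protein genes, of a kind that every cell uses, at 1.15 in cluster 0 and 1.04 relative to cluster 1. Of 12 midbrain and rostral hindbrain factors, 7 passed, with a median ratio of 1.16 in cluster 0, 0.878 in cluster 1 and 1.28 relative, and none was past both limits. Their relative median on the log2 scale was 0.36 against cluster 1 and 0.07 against cluster 6. In cluster 0 alone, 2 of 11 were past 1.5-fold higher and none lower, beside 2.26% and 2.38% of all genes. The 2 genes were Tal1, a bHLH factor that selects GABAergic fate in midbrain and hindbrain, at 22.6 and 40.8 CPM (ratio 1.80, 1.40 to 2.34), and En2 at 16.2 and 28.8 CPM (1.78, 1.32 to 2.43). En1 had 22.6 and 30.2 CPM (1.33, 1.03 to 1.75). Pax7, of the dorsal midbrain, had 187 and 146 CPM (0.781, 0.707 to 0.863), but in cluster 1 its ratio was 0.702, which gave 1.11 relative (0.941 to 1.32). Otx2, of forebrain and midbrain, was below 1 on both measures, at 37.1 and 30.2 CPM (0.812, 0.650 to 1.02, relative 0.778, 0.555 to 1.09). Of the 58 distal bins nearest to genes of this list, 2 were 2-fold higher and 6 lower (6.42% and 8.15% of all bins), with a median ratio of 0.884 (0.998 over all bins). Of the 39 Hox genes 8 passed, with a median ratio of 1.21 and 1.63 relative, and 2 were higher past both limits and none lower, beside 1.24% and 1.28% of all genes. Hoxd4 stood at 18.98 and 36.1 CPM (ratio 1.90, 1.45 to 2.53, relative 2.06, 1.44 to 2.95), and Hoxd3 at 44.7 and 70.2 CPM (1.57, 1.31 to 1.89, relative 1.78). The span of Hoxd4 lies within that of Hoxd3, so they share fragments and are not separate measurements. Counts summed over the 39 genes went from 666 to 750 CPM in cluster 0 (ratio 1.13, 1.07 to 1.18). In cluster 1 they went from 1453 to 1195 CPM. A fragment over several Hox spans enters this sum once for each, so the interval is too narrow. Against cluster 6 only 3 Hox genes passed and their median log2 relative shift was -0.27, the opposite direction.

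Of the glutamatergic lineage genes, 6 of 16 passed, with a median ratio of 0.987. In cluster 0 alone, 8 could be read and 1 was 1.5-fold higher (2.26% of all genes were), Slc17a6, the vesicular glutamate transporter of diencephalon, brainstem and spinal cord. It stood at 51.1 and 80.2 CPM (ratio 1.57, 1.32 to 1.87). The cortical transporter Slc17a7 had 41.6 and 42.0 CPM (1.01, 0.824 to 1.24). Bcl11b, a zinc finger factor of deep cortical layers and of striatal neurons, had 358 and 284 CPM (0.793, 0.738 to 0.852), but also 232 and 175 CPM in cluster 1.

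For the genes of the GABAergic trait itself, none of 5 that passed (of 6) was past the limits, with a median ratio of 0.961 in cluster 0 and 1.07 relative. Gad2 had 146.5 and 100.5 CPM (ratio 0.686, 0.611 to 0.770), and in cluster 1 the ratio was 0.642, so that its ratio relative to cluster 1 was 1.07 (0.811 to 1.41). Over all nuclei outside cluster 0, a pool that holds cluster 1 and whose mix of clusters differed between the libraries, the level of Gad2 was 34.8 CPM in both. Fragments over Gad2 were in 80 of 87 and 128 of 172 nuclei. Gad1 had 134 and 141 CPM (1.06, 0.945 to 1.18). Slc32a1 had 60.8 and 46.3 CPM (0.761, 0.638 to 0.909) and Npas4 44.4 and 42.1 CPM (0.949, 0.778 to 1.16), and both had too few fragments in cluster 1 to be set against it. The direction of the relative median depended on the comparison, at -0.24 on the log2 scale against cluster 6 and -0.10 against all other nuclei, beside 0.10 against cluster 1.

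**Figure D5:**
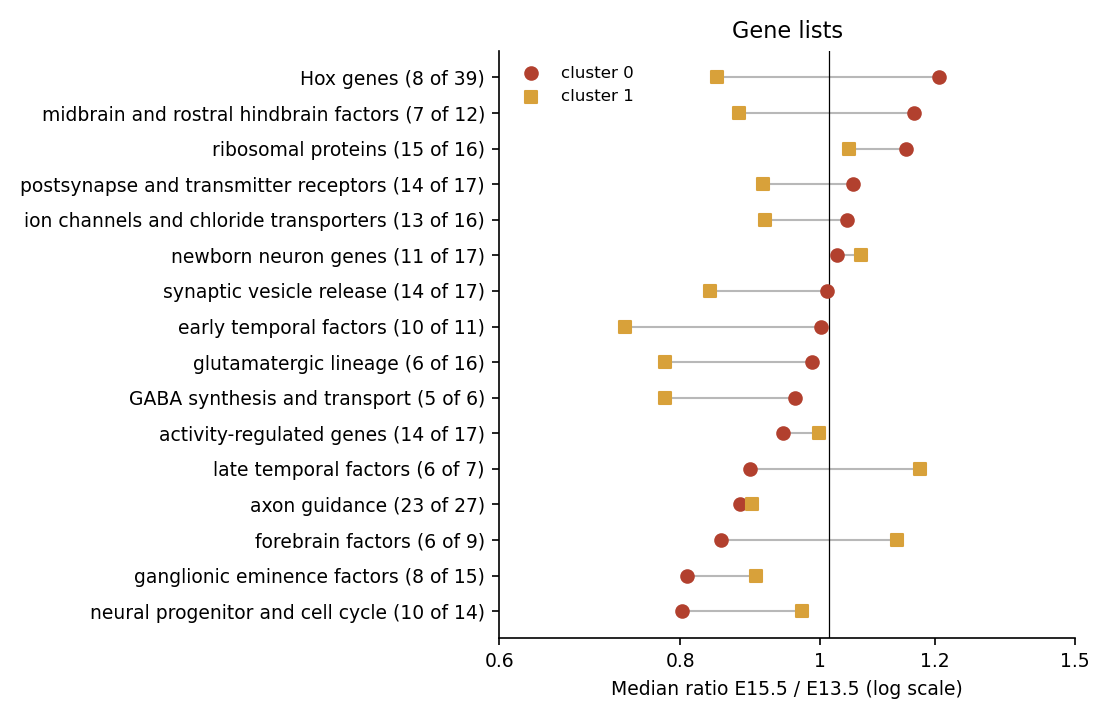
Median ratio E15.5 / E13.5 (x axis, log scale) over the members of each gene list that passed the minimum, in cluster 0 (circles) and cluster 1 (squares), with the number that passed of those listed. The line marks the median of all genes in cluster 0 (1.01); Hox genes lie at 1.21 and ganglionic eminence factors at 0.809.

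Lists of neuronal function had medians near that of all genes. Synaptic vesicle release genes had a median of 1.01 in cluster 0 (14 of 17 passed), postsynaptic genes and transmitter receptors 1.05 (14 of 17), ion channels and chloride transporters 1.04 (13 of 16) and newborn neuron genes 1.03 (11 of 17), and none of their members was past the limits. Members lay on both sides. Cacna1e, a calcium channel subunit, had 480 and 366 CPM (ratio 0.763, 0.717 to 0.812, relative 0.810), and Mfng, a modulator of Notch in newborn neurons, 61.1 and 43.2 CPM (0.706, 0.590 to 0.845, relative 0.677). Dll3, a Notch ligand, had 40.5 and 52.6 CPM (1.299, 1.07 to 1.59, relative 2.70). Slc12a5, the chloride exporter that makes GABA inhibitory as neurons mature, had 98.5 and 138 CPM (1.40, 1.24 to 1.59, relative 2.06), and the vesicle protein gene Sv2b 92.1 and 128 CPM (1.39, 1.23 to 1.59). Grin1, the shared NMDA receptor subunit, had 73.4 and 89.1 CPM (1.21, 1.05 to 1.41, relative 2.01). Gabra2, a GABA receptor subunit, had 76.8 and 77.3 CPM (1.01, 0.869 to 1.17, relative 0.629).

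Progenitor and cell cycle genes had a median of 0.802 in cluster 0, 0.972 in cluster 1 and 0.919 relative (10 of 14 passed). Hes1, a Notch effector that maintains progenitors, was the 1 gene of these past the limits (1.28% of all genes were lower), at 32.9 and 21.9 CPM (ratio 0.666, 0.519 to 0.856, relative 0.609). Its ratio of 0.66638 was the one just inside the lower limit, and the gene just outside had 0.66675. Notch1 had 155 and 111 CPM (0.719, 0.644 to 0.804). Early temporal factors, which mark young progenitors, had a median of 1.00 in cluster 0 and 0.733 in cluster 1, and late temporal factors, among them the NFI genes, 0.894 and 1.17, with 0 past the limits in either list. Nfix had 248 and 187 CPM (0.752, 0.690 to 0.821, relative 0.647). Activity-regulated genes had a median of 0.942 (14 of 17 passed), with 1 past the limits, beside 1.28% lower and 1.24% higher of all genes. It was Fosl2, lower at 74.2 and 40.5 CPM (0.545, 0.458 to 0.648, relative 0.554). Listed axon guidance genes had a median of 0.880 in cluster 0 and 0.898 in cluster 1 (23 of 27 passed), with none past the limits. Epha3 was the lowest of them relative to cluster 1, at 195 and 142 CPM (0.731, relative 0.668). Plxna1, higher past both limits above, and the ephrin gene Efna1, lower past both (0.608, relative 0.467), are not on this list. No neuropeptide gene passed in both clusters. The 16 listed ribosomal protein genes, of a kind that every cell uses, had a median of 1.15 (1.05 in cluster 1), with none of the 15 that passed past the limits. Rps28, which is not on the list, was lower past both limits (181 and 185 fragments, ratio 0.547, relative 0.474).

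Markers of other cell types were counted in the same nuclei. The mesenchyme list summed to 318 CPM at E13.5 and 282 at E15.5 in cluster 0 (ratio 0.887, 0.823 to 0.955), against 805 and 966 CPM in cluster 1. Col1a1 (46.9 and 29.7 CPM, ratio 0.634) and Pdgfra (75.1 and 49.0 CPM, ratio 0.652) were lower past both limits and Twist2 higher (35.7 and 55.4 CPM, ratio 1.55), of 6 that passed, beside 1.28% of all genes lower and 1.24% higher. The erythroid list summed to 231 and 281 CPM (1.22, 1.12 to 1.32), with Tal1 among its members. Another member, Sptb, had 119 and 165 CPM (1.385, 1.24 to 1.55), and Klf1 had 23.2 and 18.4 CPM (0.793, 0.595 to 1.06). The endothelial list summed to 291 and 267 CPM and the glial list to 256 and 231 CPM. For endothelial genes, Kdr was lower (47.5 and 28.7 CPM, 0.604) and Cdh5 higher (16.5 and 36.0 CPM, 2.19), and for the glial list Sox9 was lower (50.5 and 27.3 CPM, 0.541) and Gfap higher (19.8 and 35.4 CPM, 1.79). Sums of the epithelial, muscle, immune, liver and peripheral neuron lists had ratios between 0.911 and 1.12. No marker was at 0 in either library, and what part other cells had in the gene shifts was not tested.

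Promoters were counted from 1000 bp upstream to 100 bp downstream of the gene start, by the same limits and with at least 100 fragments in each cluster. Of 6441, 138 (2.14%) were higher and 111 (1.72%) lower at E15.5 past both limits, with a median ratio of 1.02. Scaled to all autosomal fragments, which lets the larger promoter share at E15.5 count, the split was 302 higher and 27 lower. Of the 6272 genes read both as gene and as promoter, 18 were higher on both and 12 lower on both, out of 54 and 35 genes and 134 and 105 promoters past the limits. The other genes past the limits were not among those read as promoters and could not be compared in this way. Gene bodies and promoters share fragments.

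The promoter of Fndc3a (gene at chr14:72537946-72710003) ranked first, at 62.9 CPM in the earlier and 109 CPM in the later library (ratio 1.73, relative 2.90, 1.69 to 4.97). That of Ptrh2, a mitochondrial peptidyl-tRNA hydrolase (chr11:86683985-86692457), had 44 and 161 fragments (ratio 1.72, relative 2.65), and that of Tnrc6c, a component of microRNA silencing (chr11:117654289-117763439), had 60 and 232 (1.82, relative 2.55). Slc27a3 (22 and 92 fragments, 1.96) was past the limits as a gene too, while the Fndc3a, Ptrh2 and Tnrc6c genes as a whole were not, with ratios of 1.16, 1.00 and 1.201 (relative 1.01, 1.24 and 1.12). Amigo2, an adhesion protein gene of neurons, had 28 and 95 (1.59, relative 2.81). These promoters depended on the cluster they were set against: relative to cluster 6, Amigo2 was at 1.02 and Tnrc6c at 1.28, both under the limit, and Slc27a3 at 5.54. Against all nuclei outside cluster 0, Amigo2 was at 1.25. Lowest was Mpst (chr15:78406416-78414013), an enzyme of sulfur metabolism, with 87 and 86 fragments (137 and 63.5 CPM, ratio 0.464, relative 0.219, 0.130 to 0.368). Insr, the insulin receptor (84 and 80 fragments, 0.447, relative 0.314), Tbce, a tubulin chaperone (51 and 67, 0.617, relative 0.332), Gas1, a Hedgehog co-receptor (59 and 51, 0.406, relative 0.384), and Foxp4, a forkhead factor (86 and 94, 0.513, relative 0.405), followed. The Insr and Foxp4 genes as a whole moved little, with ratios of 0.803 and 0.816.

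The 11 cluster 0 nuclei of E12.5 were used in none of the choices above, and their levels did not follow 1 pattern. A fragment over a Y-linked gene was present in 0 of the 11, against 68 of 87 nuclei at E13.5 and 1 of 172 at E15.5. The E12.5 nuclei had a median of 108627 fragments, and 7.83% of their fragments lay over promoters. Sex, depth and stage cannot be told apart in these levels. Of the 10 higher genes named, 5 were nearer to E13.5 than to E15.5 at E12.5, and of the 10 lower genes 4 were. Of the 5 promoters named each way, 2 of the higher and 2 of the lower were nearer to E13.5. Among the 5 bins named each way, 2 of the higher and 1 of the lower were. The following genes were chosen after their values were seen. Npas1 had 34.6 CPM (21.7 to 52.4) at E12.5, against 93.2 at E13.5 and 53.5 at E15.5, and Rarb 218 CPM (184 to 258) against 340 and 222. Slc17a6 had 69.2 CPM (50.2 to 92.8) against 51.1 and 80.2. Hoxd4 had 31.4 CPM (19.2 to 48.5) against 18.98 and 36.1. Hoxd3, at 47.2 CPM (31.8 to 67.3) against 44.7 and 70.2, lay nearer to E13.5. Gad2 was lower still at E12.5, with 59.7 CPM (42.3 to 82.0). Of the fragments in the 20000 distal bins, the higher bins took 6.11%, 3.25% and 8.04% from the earliest to the latest stage, and the lower bins 5.57%, 9.46% and 3.64%. At E13.5 and then E15.5, the higher bins took 6.20% and 6.20% in cluster 1 and 5.82% and 6.13% in cluster 6, and the lower bins 5.18% and 4.62% in cluster 1 and 5.52% and 4.76% in cluster 6. The lower bins thus took less at the later stage in clusters 1 and 6 too, while in cluster 0 the choice of the bins fixed this direction. With 11 nuclei from 1 further library, these values are a description.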

How the data were processed

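Nuclei of 3 libraries, 1 per stage, were measured by single-nucleus ATAC-seq. Per the file headers, the authors ran Cell Ranger ATAC 2.0.0 on an mm10 reference and deposited fragment files, in which each unique fragment has a count of its read pairs. The authors' table of nuclei gives a count of passed fragments, the library and the cluster. Seurat 4.1.0 and Signac 1.6.0 are named in the submitters' processing notes, and 20 further columns of the table were not used. The dimensions and resolution behind the deposited cluster numbers of these nuclei are not given in the sources used here.

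Here each unique fragment was counted once over GENCODE genes (up to 500 kb, without protocadherin and Ugt clusters), promoters and distal bins, summed per cluster and library and scaled to the total over features of that kind (Python 3.11.15, numpy 2.4.6, pandas 2.3.3, scipy 1.17.1, pysam 0.24.0). Distal bins above 100 times the median level were left out. Intervals are exact (Poisson, Clopper-Pearson, conditional) at 95% and cover counting error only. Barcodes of a library were taken as linked when identical fragments made up at least 10% of the smaller one, which held in cluster 0 for 1 nucleus of the earlier and 4 of the later library. The scripts were tested on simulated data.

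The 10 highest and 10 lowest genes and 5 promoters each way were named by the bound nearest 1 of the interval relative to cluster 1, 5 bins each way by that of the ratio in cluster 0, and list members when past the limits, or else from the 2 highest and 2 lowest, of which not all are printed. Other genes named were chosen after their values were seen. The members, lists and rules were chosen with earlier results of these data known. Alternatives covered the scaling, the comparison cluster, the weight of nuclei, linked and deep nuclei, minimums, folds and bins. Some results are not reported here.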

Additional observations from a re-analysis of the deposited data

Results flagged for a closer look

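Only the named features are counted here, 10 genes and 5 promoters each way, and no share over all genes or promoters is given. For all 20 of these genes and 6 of these promoters, the counting intervals of the ratio E15.5 / E13.5 lay on opposite sides of 1 in cluster 0 and in cluster 1. The genes and promoters were named by their ratio relative to cluster 1, so that this contrast follows in part from their choice. With 1 library per stage the difference was not tested. The ratio in cluster 0 divided by that in cluster 1 was 3.86 for Ly6h, 3.35 for G6pc3, 3.10 for Nrn1, 3.07 for Cdh3, 2.90 for Arhgef15, 2.89 for Ccdc105, 2.73 for Tfap2b, 2.71 for Gusb, 2.69 for Fstl3 and 2.23 for Plxna1. Among the lower genes it was 0.248 for Tnfsf8, 0.331 for Copz2, 0.334 for Col6a2, 0.336 for Trim47, 0.341 for Cdh17, 0.360 for Dpep1, 0.377 for Fzd5, 0.389 for Htra3, 0.403 for Aox1 and 0.409 for Gm12216. For promoters it was 2.95 for Slc27a3, 2.90 for Fndc3a, 2.81 for Amigo2, 2.65 for Ptrh2, 0.332 for Tbce and 0.219 for Mpst. With cluster 6 in place of cluster 1, Ly6h was at 1.41, Tfap2b at 1.35, Cdh17 at 0.963, Aox1 at 0.701 and the Amigo2 promoter at 1.02, none past the limit of 1.5-fold.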

How the results depend on the processing

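No paired analysis was possible because each stage has 1 library and no replicate. Counts of genes past the limits (151 higher and 156 lower of 12162) became 68 and 90 of 9019 against cluster 6, with 43 and 62 of them among the first count. They became 609 and 638 of 17621 with a minimum of 20 fragments, and 7 and 9 of 12162 at a fold of 2. By cluster 0 alone, a choice made after seeing the data, they were 299 and 315 of 13236. Of the 151 and 156 genes, 83 and 100 were called again with nuclei weighted equally and 113 and 113 without the deepest nuclei. Promoters (138 and 111 of 6441) became 302 and 27 when scaled to all autosomal fragments, which moved their median log2 ratio from 0.03 to 0.25. They became 53 and 25 of 3885 against cluster 6, 635 and 706 of 11751 with a minimum of 20, and 5 and 9 of 6441 at a fold of 2. Distal bins (1285 and 1630) became 4187 and 6243 among 50000 bins, 574 and 903 in 5 kb bins, and 3582 and 4065 at a fold of 1.5, and 2587 and 2354 with nuclei weighted equally. The relative ratios of the 20 named genes moved beyond their counting interval for 10 against cluster 6 and for 8 against all nuclei outside cluster 0, and those of the 10 named promoters for 6 and 4. Of the list medians relative to cluster 1 (log2), GABA synthesis and transport went from 0.10 to -0.24 against cluster 6 and -0.10 against all nuclei outside cluster 0, Hox genes from 0.71 to -0.27 against cluster 6 (3 genes), and axon guidance from -0.05 to -0.22 against all nuclei outside cluster 0. The intervals of these medians are wide, and other medians went to about 0 or past it: against cluster 6, forebrain factors from -0.36 to 0.02, midbrain factors from 0.36 to 0.07 and newborn neuron genes from -0.10 to 0.29, and with nuclei weighted equally, ganglionic eminence factors from -0.21 to 0.01. With E12.5 in place of E13.5, also added after seeing the data, the ratio was 0.852 for Cdh3, 0.937 for Nrn1 and 0.809 for Tfap2b, below 1 where it had been above. Of the other named genes, 10 moved beyond the counting interval of their ratio in cluster 0 without crossing 1, and 7 stayed within it. The causes were not tested. With nuclei weighted equally, bin ratios moved by over 1.5 times in Pknox2 (15.53 to 5.55), Plxna1 (14.7 to 8.58), upstream of Phyhipl (13.04 to 33.1), Ksr1 (0.0666 to 0.0410) and upstream of Slc29a3 (0.133 to 0.0876), all in the same direction from 1 as before. The ratio of a named gene does not depend on the minimum, so that alternative gave no further value for it. At the minimum of 200 fragments, a gene ratio of 1.48 had an interval of 1.08 to 2.07, and at 100 fragments a promoter ratio of 1.49 had one of 0.929 to 2.46.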

Other observations

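Distal bins were also counted by their nearest coding gene, for genes chosen after their values were seen and without a spread over all genes. Of 67 bins nearest to Gm26897, 17 were at least 2-fold lower at E15.5 and 0 higher (median ratio 0.693). Grik3 had 10 lower and 1 higher of 46 (median ratio 0.936), and Gins2 9 and 1 of 84 (0.760). Of 54 bins nearest to Bcl11b, a factor of deep cortical and striatal neurons, 14 were at least 2-fold lower at E15.5 and 2 higher, with a median ratio of 0.751. Of 32 nearest to Mn1, 10 were lower and none higher, and of 37 nearest to Flrt1, a membrane protein of axon guidance and adhesion, 13 were lower and none higher. In the other direction, 5 of 28 bins nearest to Lmx1b, a homeodomain factor of the midbrain and hindbrain, were higher and none lower (median ratio 1.31), as were 5 of 14 nearest to Nav2, and 7 of 57 nearest to Celf4, a neuronal RNA-binding protein, were higher and 4 lower. Among the genes with the most higher bins, Gm11733 (7 higher and 4 lower of 51, median ratio 0.985) and Gse1 (6 and 4 of 90, 0.928) did not lean higher by their medians. By list, beside 6.42% higher and 8.15% lower of all bins, glutamatergic lineage genes had 16 lower and 4 higher of 84 bins (Bcl11b, a member, holds 54 of these, with 14 of the lower and 2 of the higher ones), activity-regulated genes 12 and 0 of 78, ganglionic eminence factors 9 and 2 of 65, GABA synthesis and transport genes 6 and 0 of 53, axon guidance genes 16 and 7 of 138, newborn neuron genes 8 and 8 of 95, and synaptic vesicle genes 2 and 5 of 33. Neighbouring bins can belong to 1 element, so they are not separate measurements.

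The genes of the RFX factors themselves had ratios on both sides of 1. Rfx4, expressed in the neural tube, had 131 CPM at E13.5 and 154 CPM at E15.5 in cluster 0 (ratio 1.17, 1.05 to 1.31), and Rfx7 had 101 and 123 CPM (1.22, 1.07 to 1.38). Rfx3, a factor of ciliated cells, had a ratio of 0.961 (0.878 to 1.05), Rfx1 one of 0.853 (0.760 to 0.959) and Rfx2 one of 0.880 (0.791 to 0.979). None of the 7 RFX genes that passed the minimum in both clusters was past the limits. Rfx6, with too few fragments in cluster 1, had 27.9 and 16.9 CPM (ratio 0.604, 0.458 to 0.799). Over the 781 bins with the inverted repeat, a search added after seeing the data, 12.04% were at least 2-fold higher with 1 barcode per linked group, 14.0% without the deepest nuclei and 19.2% with nuclei weighted equally, beside 6.48%, 8.18% and 11.1% of all bins.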
